A study of Homo sapiens with 31 samples.

Results

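The peaks of the oncoprotein EVI1 and of its partner CTBP2 were examined at 34 genes of red cell and platelet formation in 3q26-rearranged acute myeloid leukemia (AML) cell lines. The list is a set of named genes and holds 23 erythroid genes, 10 megakaryocyte genes and NFE2, which serves both lineages. It is set against the 20115 other protein-coding gene symbols of the same annotation, of 20149 in all. All 34 genes were found in the annotation (GENCODE 44 on hg19). A gene was counted as having a peak when the summit of at least 1 peak lay within 100 kb of one of its transcription start sites (TSSs) and no other protein-coding TSS was nearer.

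Chromatin immunoprecipitation sequencing (ChIP-seq) peak lists of 13 of the 31 samples were used. MUTZ3 and MOLM1 are human AML cell lines with a 3q26 rearrangement. Unmodified, untreated MUTZ3 cells gave 1 EVI1 and 1 CTBP2 library, and untreated MOLM1 cells carrying a dox-inducible short hairpin against EVI1 gave 1 CTBP2 library. MUTZ3 cells transduced with a retroviral 4xPLASS construct, the mutated control peptide, gave 2 CTBP2 libraries. MUTZ3 cells with a lentiviral, doxycycline (dox)-inducible 4xPLDLS construct, a peptide that competes with EVI1 for CTBP2, gave 2 CTBP2 and 2 EVI1 libraries untreated and the same number after 72 h of dox. No library of dox-treated cells without the construct was analysed here, and nothing states whether replicates came from separate cultures, so errors and p-values over them measure the spread between libraries, which may be technical.

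EVI1 is a zinc finger transcription factor of hematopoietic stem cells, and CTBP2 is a corepressor that binds no DNA by itself and is brought to chromatin by factors carrying a PLDLS-type motif. Red cell precursors switch on globin, heme and membrane skeleton genes under GATA1 and KLF1, and the beta-globin genes share a distant locus control region. Megakaryocytes, which shed platelets, switch on adhesion receptor and granule genes under GATA1, RUNX1 and NF-E2. The lists hold peaks and no expression values, so whether a gene was transcribed was not measured.

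The lists hold 6688 to 72214 peaks each. The first 4xPLASS library is the shortest by far (6688 peaks against 31310 in its replicate). The CTBP2 lists hold 62232 and 56526 peaks untreated and 24588 and 23878 with dox. No read counts are given, so the depth is unknown, and fewer peaks cannot be told apart from a shallower library. Fold enrichment is the signal at a summit over the local background from the input. It depends on depth and input too, so ranks and fold enrichments are read within a list, and values of several lists are set side by side.

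Merged intervals called by CTBP2 in both untreated libraries of the inducible cells are called CTBP2 sites here. 68 of them had a listed erythroid or megakaryocyte gene as nearest gene and belonged to 22 of the 34 genes. EVI1 sites were defined in the same way, and 73 of them lay at 23 of the 34 genes, namely the same 22 genes and TUBB1. Strength and fate of CTBP2 over the gene list are read from all 68 sites, and the places printed here were chosen by rank. The bases from 50 before to 50 after the CTBP2 summit of untreated replicate 1 are given. They are printed for the best-ranked CTBP2 sites, those of 4 erythroid and 3 megakaryocyte genes. The best-ranked site where dox libraries gave no CTBP2 peak is added (hg19, capitals mark a match to a searched motif on either strand).
GYPC, in an intron: chr2:127415483-127415583, plus strand: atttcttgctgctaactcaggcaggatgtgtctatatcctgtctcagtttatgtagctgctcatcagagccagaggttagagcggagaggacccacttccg
TFRC, intergenic, 17.2 kb upstream: chr3:195825911-195826011, plus strand: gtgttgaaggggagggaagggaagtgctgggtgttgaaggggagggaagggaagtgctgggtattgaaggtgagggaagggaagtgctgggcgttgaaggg
EPB41, intergenic, 4.80 kb upstream: chr1:29208625-29208725, plus strand: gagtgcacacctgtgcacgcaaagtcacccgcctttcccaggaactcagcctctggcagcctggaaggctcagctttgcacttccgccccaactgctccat
HBE1, 10.8 kb upstream: chr11:5301945-5302045, plus strand: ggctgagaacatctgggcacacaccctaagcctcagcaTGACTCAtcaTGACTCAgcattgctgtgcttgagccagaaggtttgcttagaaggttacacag
ITGA2B, promoter: chr17:42467318-42467418, plus strand: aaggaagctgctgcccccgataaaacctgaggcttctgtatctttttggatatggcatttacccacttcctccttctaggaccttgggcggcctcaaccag
SELP, in an intron: chr1:169574310-169574410, plus strand: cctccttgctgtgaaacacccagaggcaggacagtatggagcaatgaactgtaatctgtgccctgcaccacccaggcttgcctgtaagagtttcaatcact
VWF, in an intron: chr12:6172424-6172524, plus strand: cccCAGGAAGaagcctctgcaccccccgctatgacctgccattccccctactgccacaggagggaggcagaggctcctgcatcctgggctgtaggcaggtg
TFRC, intergenic, 45.6 kb upstream, no dox peak: chr3:195854510-195854610, plus strand: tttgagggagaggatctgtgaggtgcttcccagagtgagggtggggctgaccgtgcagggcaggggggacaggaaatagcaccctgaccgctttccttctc

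The HBE1 sequence holds TGACTCA, the core letters read by NF-E2 and AP-1, at bases 39 and 49 of the printed stretch. This motif was chosen after the sequence was seen, and it occurs in 2.58% of the 36848 CTBP2 sites whose chromosome is in the reference used. The TFRC sequence at 17.2 kb is built of a unit that recurs every 30 bases, with 93.0% of bases identical to the base 30 further on. In the other sequences the best such shift between 10 and 50 bases gave at most 42.9%. The VWF sequence holds CAGGAAG, an ETS-type motif, at base 4.

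Over all 68 CTBP2 sites of the gene list, windows of this length held AGATAA, a motif of the GATA type that is also part of the site of the first zinc finger domain of EVI1, in 2 (2.94%, against 2.73% of all CTBP2 sites). CAGGAAG was in 7 (10.3%, against 10.9%), and TGTGGT, a RUNX-type motif, was in 7 (10.3%, against 9.95%). GAAGATGA, read by the second zinc finger domain of EVI1, and CCACACCC, a KLF-type motif, were in 0 of the 68, against 0.486% and 1.54% of all sites. Both strands were searched, and none of these words contains another. At the 73 EVI1 sites AGATAA was in 1 (1.37%, against 4.49% of all EVI1 sites) and TGACTCA in 4 (5.48%, against 2.51%). The shares at CTBP2 sites of the gene list were thus close to those of all sites for the 3 commoner words.

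The central 50 bases of 64 of the 68 CTBP2 sites occur once in the genome. Those of the GYPB site, the HBA2 site, the GP9 site at 27.4 kb and the TFRC site at 63.2 kb have 2 exact copies each, so peaks there may hold reads of a near-identical sequence. The alpha-globin pair HBA1 and HBA2, the gamma-globin pair HBG1 and HBG2, and GYPB with its neighbouring glycophorin copies are uncertain for this reason.

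The share of listed genes with a peak was near that of all other genes in each of the 13 lists. EVI1 in unmodified MUTZ3 cells had a peak at 16 of the 34 genes (47.1%, Wilson 95% interval 31.5 to 63.3) and at 44.9% of other genes. CTBP2 in the same cells had one at 11 genes (32.4%, 19.1 to 49.2) and at 35.8% of others. In MOLM1 cells CTBP2 had a peak at 26 genes (76.5%) and at 71.2% of others. With 4xPLASS the counts were 5 and 18 of 34, beside 19.4% and 53.2% of other genes. In inducible MUTZ3 cells CTBP2 had a peak at 24 and 26 genes untreated, beside 74.2% and 71.4% of others, and at 18 and 18 with dox, beside 52.4% and 48.4%. EVI1 there had a peak at 23 and 27 genes untreated, beside 71.9% and 78.3% of others, and at 26 and 22 with dox, beside 73.2% and 70.5%. Intervals cover counting error alone. The share of other genes lay inside the interval of the gene list in every library.

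4 genes had no peak in any of the 13 lists, beside 11.1% of other genes: HBB, the adult beta-globin, HBG2, a fetal gamma-globin, ALAS2, the erythroid enzyme that starts heme synthesis, and PF4, a platelet chemokine. HBG1 had a peak in the MOLM1 list alone. At the other end, ANK1, EPB41, GYPB, GYPC and TFRC had a peak in all 13, beside 14.7% of other genes.

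Of the 8 globin genes, which encode the chains of hemoglobin, 2 had a CTBP2 site, HBE1 and HBA2. HBE1 encodes the embryonic beta-like chain, and its site at chr11:5301790-5302135 lies in the locus control region of the beta-globin cluster, in an intron of a long annotated HBE1 transcript. CTBP2 fold enrichment at it was 13.5 and 12.8 untreated and 2.75 and 4.23 with dox, where it ranked 6764 and 4380, and 24012 and 18499, in the respective lists. Both dox values were thus below both untreated ones. EVI1 fold enrichment was 13.2 and 13.4 untreated and 12.2 and 15.3 with dox, so its groups overlapped. The element ranked 984 of 64569 in the MOLM1 CTBP2 list, at a fold enrichment of 26.7, the best rank of any listed gene there. It was not called by CTBP2 in unmodified MUTZ3 cells, where EVI1 was called at 10.1. The other beta-cluster genes had far less: HBD, the minor adult chain, had peaks in 3 lists, at fold enrichments of 8.60 in MOLM1, 3.05 in CTBP2 untreated replicate 2 and 3.56 in EVI1 dox replicate 1.

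HBA2, an alpha-globin gene, had a site 2.87 kb upstream at chr16:219638-220368. CTBP2 was at 12.5 and 8.18 untreated and at 5.62 in dox replicate 1, with no peak in dox replicate 2. EVI1 was at 5.76 and 6.83 untreated and 5.38 in dox replicate 1 only. HBA1 had peaks in 3 lists (fold enrichment 5.53 to 8.33), and HBZ, the embryonic alpha-like gene, also in 3 (4.07 to 6.16). AHSP, the chaperone of free alpha-globin, had peaks in 3 lists at 4.33 to 5.74, and none of its peaks recurred in both replicates of a group.

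KLF1, the factor that drives adult globin and many other red cell genes, had 1 CTBP2 site, centred 1.39 kb inside the gene over a coding exon. CTBP2 fold enrichment was 6.96 and 4.59 untreated and 6.79 and 3.66 with dox, so the groups overlapped. EVI1 was at 6.02 and 10.9 untreated and at 12.2 and 8.01 with dox, again overlapping. NFE2, the blood-specific subunit of NF-E2, had 3 CTBP2 sites. Its strongest by rank in untreated replicate 1, at rank 33255, had CTBP2 at 5.80 and 4.25 untreated and 3.17 and 4.44 with dox, and EVI1 at 2.88 and 7.52 untreated and 6.48 and 4.47 with dox. The other 2 NFE2 sites, at 1.19 kb upstream and 0.523 kb downstream, had CTBP2 at 5.06 to 5.46 untreated, no CTBP2 peak with dox and no EVI1 peak in any of the 5 EVI1 lists. Another NFE2 element, within 1 kb of its TSS, is not among these sites. It is not among the EVI1 sites of the gene list either, although EVI1 peaks of both untreated libraries overlapped there. Peaks were assigned to genes by summit, and sites by the centre of the merged interval. This element held the strongest NFE2 peak of all 5 EVI1 lists. EVI1 was at 10.3 and 18.1 untreated, 17.7 and 12.6 with dox, and 6.61 in unmodified cells. CTBP2 there was at 8.16 in untreated replicate 1, 6.31 in dox replicate 1 and 5.85 in unmodified cells.

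TFRC, the transferrin receptor that brings iron into red cell precursors, held 13 of the 68 CTBP2 sites, the most of any listed gene. The site 17.2 kb upstream, at chr3:195825056-195827237, had CTBP2 at 28.3 and 30.1 untreated and at 14.9 and 23.6 with dox, and its ranks were 661 and 245 untreated and 282 and 68 with dox. Both dox fold enrichments were below both untreated ones. It ranked 131 in the unmodified CTBP2 list (fold enrichment 20.0) and 251 and 864 with 4xPLASS, and was not called in the unmodified EVI1 list. EVI1 in inducible cells was at 11.03 and 22.4 untreated and 11.1 and 8.10 with dox. This is the element whose bases recur every 30 positions.

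A second TFRC site, 38.8 kb upstream at chr3:195846995-195848628, had CTBP2 at 22.0 and 29.2 untreated and 7.60 and 9.96 with dox. EVI1 there was at 26.6 and 39.5 untreated and 14.3 and 13.6 with dox, so both proteins had lower dox values in both replicates. The site 45.6 kb upstream, at chr3:195854213-195854976, was the best-ranked one with no dox peak, at CTBP2 ranks 9436 and 20331 and fold enrichments of 11.7 and 6.56. EVI1 was called at it in all 4 lists, at 6.79 and 17.4 untreated and 5.37 and 5.97 with dox. EPOR, the erythropoietin receptor, had 2 CTBP2 sites inside the gene and no CTBP2 peak with dox at either. The better-ranked, at rank 26522, had CTBP2 at 6.66 and 3.82 and EVI1 at 6.99 and 8.32 untreated and 7.20 and 5.21 with dox.

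Of the 3 heme synthesis genes, UROD and FECH had CTBP2 sites. UROD, the decarboxylase of uroporphyrinogen, had 3 within 2 kb, and its best ranked 9800. CTBP2 there was at 11.5 and 7.12 untreated and 6.53 in dox replicate 1 alone, with EVI1 at 8.13 and 12.98 untreated and 9.88 and 6.07 with dox. FECH, the enzyme that inserts iron into the ring, had a site 5.29 kb inside the gene at rank 18027, where CTBP2 was at 8.45 and 9.12 untreated and 5.39 in dox replicate 1 alone. EVI1 there was at 8.03 and 9.66 untreated and 10.5 and 9.19 with dox. At the FECH promoter CTBP2 was at 4.04 and 4.08 untreated and higher in both dox libraries, at 5.24 and 4.14.

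All 8 genes of the red cell membrane and its skeleton had CTBP2 sites, 29 in all. 10 of these had a CTBP2 peak in both dox libraries, 5 in 1 and 14 in neither. GYPC, which encodes glycophorins C and D that anchor the skeleton, had the best-ranked CTBP2 site of the gene list in untreated replicate 1. It spans chr2:127413206-127416094, with its centre 0.885 kb downstream of the TSS. CTBP2 was at 32.4 and 25.2 untreated and at 5.31 and 5.32 with dox, and its places in the lists were 386 and 486 without dox and 9479 and 12038 in the shorter dox lists. EVI1 was at 38.7 and 65.7 untreated and 16.7 and 14.4 with dox, where it ranked 257 and 132, and 3671 and 3747, in the respective lists. All dox values of either protein were below all untreated ones. EVI1 in unmodified MUTZ3 cells ranked this element 310 of 21505 (23.8), the best of the gene list there.

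GYPB, glycophorin B, had 1 site 43.6 kb downstream of its TSS at chr4:144896606-144897230, which is intergenic. CTBP2 was at 12.7 and 27.8 untreated and 15.6 and 28.6 with dox, so the groups overlapped, and the dox ranks were 232 and 32. EVI1 was at 23.0 and 7.31 untreated and 30.8 and 37.5 with dox, so both dox values were above both untreated ones. The untreated EVI1 libraries ranked it 1426 and 24448, and the central bases have a second copy, so the values are uncertain. EPB41, protein 4.1, which ties spectrin to actin, had 6 sites. At its best, 4.80 kb upstream at chr1:29208467-29209130, CTBP2 was at 16.7 and 10.6 untreated and 4.17 and 4.11 with dox, and EVI1 at 3.94 and 8.49 untreated and 4.81 and 4.30 with dox. Here CTBP2 dox values were below both untreated ones and EVI1 values overlapped.

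ANK1, ankyrin, had 8 CTBP2 sites. Its best by rank in untreated replicate 1, 10.2 kb upstream of the nearest TSS in an intron, was at 12.8 and 10.4 untreated and 5.93 in dox replicate 2 alone. EVI1 there was at 19.5 and 28.4 untreated and 22.4 and 17.4 with dox. A second ANK1 site, 3.76 kb upstream, ranked 855 in the unmodified CTBP2 list and 302 in the first 4xPLASS list, and was called by EVI1 in 1 library only. SPTB, beta-spectrin, had 3 sites and SLC4A1, the band 3 anion exchanger, had 3, and none of these 6 had a CTBP2 peak with dox. The best SPTB site, at rank 11553, had CTBP2 at 10.7 and 6.43 untreated and EVI1 at 13.5 and 17.7 untreated and 9.83 and 11.5 with dox. The best SLC4A1 site, at rank 21219, had CTBP2 at 7.65 and 4.42, and EVI1 at 6.53 and 7.05 untreated and 6.91 and 4.14 with dox. Outside these sites, SLC4A1 had an upstream CTBP2 peak in dox replicate 2 at chr17:42356993-42357252 (6.91). CTBP2 was called there in MOLM1 too (8.77). The strongest EVI1 peak of SLC4A1 in each EVI1 list lay at this element.

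EPB42, protein 4.2, had 5 CTBP2 sites. The best, 18.7 kb upstream in an intron of TGM5, had CTBP2 at 8.33 and 13.02 untreated and 5.67 and 8.90 with dox. EVI1 there was at 18.4 and 9.47 untreated and 9.68 and 17.3 with dox, and both pairs of groups overlapped. RHAG, the Rh-associated glycoprotein, had 1 site 9.59 kb upstream. CTBP2 was at 5.69 and 9.22 untreated and 4.51 and 4.69 with dox, and EVI1 at 11.2 and 10.7 untreated and 8.91 and 11.7 with dox. For RHAG the CTBP2 dox values were below both untreated ones.

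Among the 4 adhesion receptor genes, ITGA2B, the alpha subunit of the fibrinogen receptor, had 1 CTBP2 site, at its promoter at chr17:42466449-42467819. CTBP2 was at 21.1 and 20.3 untreated and 5.84 and 4.79 with dox, where it ranked 1912 and 1057, and 7296 and 15037, in the respective lists. EVI1 was at 19.2 and 20.5 untreated and 10.2 and 9.84 with dox. All dox values of both proteins were below all untreated ones. ITGB3, the beta subunit of that receptor, had 2 sites upstream, the better at rank 20031 with CTBP2 at 7.92 and 3.82 untreated and 6.24 in dox replicate 2. EVI1 there was called in untreated replicate 2 (5.25) and dox replicate 2 (6.10) only.

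GP9, a subunit of the receptor for von Willebrand factor, had 3 sites, the best 27.4 kb from its TSS in a UTR of ISY1-RAB43 at chr3:128806684-128807351. CTBP2 was at 9.61 and 5.27 untreated and 4.33 in dox replicate 1 alone, and EVI1 at 7.36 and 10.5 untreated and 6.42 and 3.98 with dox. GP1BA, another subunit of that receptor, had no site, and its peaks in 4 lists were at 4.64 to 8.29. TUBB1, the platelet tubulin, had no CTBP2 site and an EVI1 site 5.32 kb upstream, at 3.95 and 7.01 untreated and 5.35 in dox replicate 1.

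Among the 5 granule genes, VWF, which encodes von Willebrand factor, had 3 CTBP2 sites. The one 61.4 kb inside the gene, at chr12:6172228-6172667, ranked best in untreated replicate 1 (11777) and had CTBP2 at 10.6 and 5.03 untreated and none with dox, while EVI1 was at 9.65 and 10.3 untreated and 7.23 and 4.98 with dox. The one 16.4 kb upstream, at chr12:6249874-6250680, had CTBP2 at 9.96 and 17.6 untreated and 5.52 and 8.90 with dox, and ranked 1065 in the second 4xPLASS list and 2515 in MOLM1. SELP, the adhesion molecule P-selectin, had 1 site 14.2 kb inside the gene at chr1:169573878-169574561. CTBP2 was at 10.8 and 17.2 untreated and 8.38 and 9.49 with dox, and EVI1 at 12.7 and 9.33 untreated and 11.2 and 8.71 with dox. THBS1, thrombospondin, had 3 sites, the best by rank 0.582 kb upstream with CTBP2 at 7.34 and 6.51 untreated, none with dox, and EVI1 at 7.08 and 10.9 untreated and 5.54 and 2.57 with dox. At the THBS1 site 72.3 kb upstream CTBP2 was higher in both dox libraries, at 6.15 and 5.40 against 4.11 and 3.67. PPBP, a platelet chemokine precursor, had peaks at its promoter in 3 CTBP2 lists (4.41 to 7.56) and no site.

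CTBP2 peaks with a listed gene as nearest gene numbered 126 and 98 untreated (112 ± 19.8, SD, n = 2) and 34 and 37 with dox (35.5 ± 2.12). The log2 ratio of the means was -1.66, against -1.31 for peaks of all other genes. The groups did not overlap. By exact permutation, two-sided, p was 0.3333, the smallest value that 2 libraries against 2 allow. The number of listed genes with a CTBP2 peak was 25 ± 1.41 untreated and 18 ± 0 with dox. The log2 ratio of these gene numbers was -0.47, against -0.53 for all other genes. EVI1 peaks of the gene list numbered 91 and 132 untreated (111.5 ± 29.0) and 99 and 83 with dox (91.0 ± 11.3), a log2 ratio of -0.29 (exact permutation p = 0.667) against -0.28 for all other genes. EVI1 groups overlapped. Without untreated replicate 2 the EVI1 ratio was 0, and without untreated replicate 1 it was -0.54. When the 4 CTBP2 lists were cut to the length of the shortest, the ratio was -0.20, against -0.01 for other genes. Cut lists hold the same number of peaks by design, so this setting cannot show whether CTBP2 peaks became fewer with dox.

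Site by site, 47.1% of the 68 CTBP2 sites of the gene list overlapped a CTBP2 peak of dox replicate 1 and 42.6% one of dox replicate 2, a mean of 44.9% ± 3.12 (SD, n = 2). For the 33524 CTBP2 sites of other genes the shares were 50.9% and 46.2%, a mean of 48.6% ± 3.29. 23 sites of the gene list had a peak in both dox libraries (33.8%, against 38.3% of other sites), 15 in 1, and 30 in neither (44.1%, Wilson 95% interval 32.9 to 55.9, against 41.2%). These differences are within the counting interval. Sites of untreated replicate 1 alone gave a mean of 24.6% and those of replicate 2 alone 34.5%, so the share rests on requiring both. In lists cut to equal length 27 sites remained, and 61.1% of them overlapped a dox peak, against 74.3% of the sites of other genes.

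Of the 22 listed genes with a CTBP2 site, 15 had a site with a peak in both dox libraries, and 4 (GP9, HBA2, ITGB3 and UROD) had one in 1 dox library at most. The other 3 (EPOR, SLC4A1 and SPTB) had no dox peak at any of their sites. Among other genes with a CTBP2 site, 21.2% had none with a dox peak. For the classes of 15 and 4 genes no share of other genes was computed, so these counts are a description only. By role, 14 of 29 membrane and skeleton sites, 7 of 15 receptor sites, 4 of 7 granule sites, 2 of 6 adhesion receptor sites, 1 of 5 heme sites, 2 of 4 transcription factor sites and 0 of 2 globin sites had no peak in either dox library. Erythroid genes had 22 such sites of 52, and megakaryocyte genes 6 of 13. The number of sites per role is too small to set roles apart.

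Strength went with detection in the dox lists. All CTBP2 sites were split into 5 equal groups by rank in untreated replicate 1. In the strongest group, all 9 sites of the gene list had a peak in both dox libraries. In the weakest group 3 of 18 had a peak in both and 11 in neither. Among sites of other genes, 5541 of 6797 in the strongest group had a peak in both. In the weakest, 931 of 6586 had one in both and 4465 in neither. Shares overlapping a peak of dox replicate 1 went from 90.3% in the strongest group to 23.2% in the weakest for other genes. For the gene list they went from 100% to 33.3%. At the 23 sites called in all 4 lists, CTBP2 fold enrichment was below both untreated values in both dox libraries at 12, above both at 2 (the FECH promoter and the THBS1 site at 72.3 kb) and overlapping at 9. Among such sites of other genes 73.7% had both dox values below both untreated ones and 1.85% had both above.

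Of the 73 EVI1 sites of the gene list, 94.5% and 82.2% overlapped a peak of the dox libraries, a mean of 88.4% ± 8.72 (SD, n = 2), against 84.9% ± 5.11 for other genes. 59 had a peak in both dox libraries (80.8%, against 78.6%) and 3 in neither (4.11%, interval 1.41 to 11.4, against 8.83%). These 3 were at EPB42, TFRC and VWF, and none coincided with a site shared with CTBP2 in both untreated libraries. At the 59 sites called in all 4 EVI1 lists, fold enrichment was below both untreated values in both dox libraries at 13, against 35.3% of such sites of other genes, and above both at 6 (10.2%, against 13.2%). From untreated replicate 2 alone the mean share was 57.3%.

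Of the 68 CTBP2 sites, 56 overlapped an EVI1 peak in both untreated EVI1 libraries (82.4%, interval 71.6 to 89.6), against 82.6% for other genes. The reverse share was 57 of 73 EVI1 sites (78.1%, against 76.8%). A CTBP2 site was present at 66.1% of other genes and an EVI1 site at 68.8%. The CTBP2 and EVI1 summits of the 59 sites called by both in untreated replicate 1 lay a median of 54 bp apart, against 56 bp for other genes. Of the 56 sites with EVI1, 21 had no CTBP2 peak with dox (37.5%), and of the 12 without EVI1 in both libraries, 9 had none (75%). Among other genes these shares were 34.2% and 74.6%. The median rank was 64.5% of the CTBP2 list at sites without EVI1 and 28.9% at sites with it, and the part of strength in this difference was not tested. In unmodified MUTZ3 cells 8 of 20 CTBP2 peaks of the gene list overlapped an EVI1 peak (40.0%, interval 21.9 to 61.3, against 54.6%) and 8 of 30 EVI1 peaks a CTBP2 peak (26.7%, 14.2 to 44.4, against 42.4%). The other-gene share lay within both intervals, and the 2 libraries were crosslinked differently.

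Promoter shares of the gene list are given beside those of other genes as a description, with no test. 12 of the 68 CTBP2 sites were centred within 1 kb of a TSS (17.6%, interval 10.4 to 28.4), against 34.9% for other genes. EVI1 sites gave 13 of 73 (17.8%, 10.7 to 28.1) against 34.8%. Of the 22 genes with a CTBP2 site, 10 had one at a promoter, namely EPB41, FECH, GP9, GYPC, ITGA2B, NFE2, SPTB, TFRC, THBS1 and UROD (45.5%), against 76.3% of other genes with a site. GYPC counts here only by the centre of its merged interval, which is 2889 bp wide. Its strongest summit lay 1740 to 1803 bp from the TSS in every list. The EVI1 site at that element, centred at 1.58 kb, does not count as a promoter site. In single lists the promoter share ranged from 10.8% to 23.8% for the gene list and from 25.2% to 39.8% for other genes. ANK1, EPB41 and TFRC held 27 of the 68 sites. Without these 3 genes, a choice made after the counts were seen, 9 of 41 sites were at a promoter (22.0%). Sites of 1 gene share a locus, so the interval, which treats sites as separate, is too narrow. With a window of 2 kb the shares were 29.4% and 39.5%.

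The median distance from TSS to site centre was 9.49 kb for the gene list and 5.41 kb for other genes. By annotation, 32 of the 68 sites were in introns, 30 of these in the listed gene itself, 29 were intergenic, 5 were over coding exons and 2 over UTRs. Promoter sites overlapped a dox peak in 58.3% and 41.7% of 12 cases, and distal ones in 44.6% and 42.9% of 56. For other genes the shares were 62.1% and 50.4% at promoters and 44.9% and 44.02% at a distance. 5 of the 12 promoter sites (41.7%) and 25 of the 56 distal ones (44.6%) had no dox peak, against 31.9% and 46.2% for other genes. The median CTBP2 site ranked at 33.1% of the list for the gene list and at 30.8% for other genes. Of the 5 groups by strength, the strongest held 13.2% of sites of the gene list and 20.3% of others. The next held 25% and 20.2%, and the weakest 26.5% and 19.6%. The part of strength in the shares with a dox peak was not tested.

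CTBP2 peaks of MUTZ3 were set beside those of MOLM1, the other cell line. CTBP2 had a peak at 10 listed genes in both unmodified MUTZ3 and MOLM1 (ANK1, EPB41, GYPB, GYPC, ITGA2B, NFE2, PPBP, RHAG, TFRC and VWF), at THBS1 in MUTZ3 alone, at 16 in MOLM1 alone and at 7 in neither. Among other genes these shares were 33.9%, 1.86%, 37.3% and 27%. The MOLM1 list is far longer. Among the strongest 16000 peaks of each list, 11 listed genes had a peak in MUTZ3 and 11 in MOLM1, beside 34.7% and 34.8% of other genes, and 7 were the same, beside 22.6% of other genes. By peak, 14 of the 20 MUTZ3 peaks overlapped a MOLM1 peak (70.0%, interval 48.1 to 85.5, against 70.7%), and 13 of the 81 MOLM1 peaks overlapped a MUTZ3 one (16.0%, 9.63 to 25.5, against 19.3%). With 1 library per cell line there is no replicate error.

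HBE1, EPB42, ITGB3 and SELP were among those 11 in MOLM1 and not in unmodified MUTZ3, beside 12.2% of other genes. GYPB, NFE2, PPBP and THBS1 were in unmodified MUTZ3 and not in MOLM1, beside 12% of other genes. At ITGB3 the element 13.6 kb upstream ranked 2959 in MOLM1, at a fold enrichment of 19.7, and had CTBP2 at 5.10 and 6.52 in untreated inducible MUTZ3 cells. The HBE1, EPB42 and SELP sites had 26.7, 15.8 and 13.9 in MOLM1. In untreated inducible MUTZ3 cells CTBP2 was at 13.5 and 12.8 at HBE1 and at 8.33 and 13.02 at EPB42. At SELP it was at 10.8 and 17.2 there. HBA1, HBG1 and TUBB1 had a CTBP2 peak in MOLM1 and in neither untreated inducible MUTZ3 library, at fold enrichments of 5.53, 8.13 and 8.31. Of the 68 CTBP2 sites of inducible MUTZ3 cells, 38 overlapped a MOLM1 peak (55.9%), 15 an unmodified MUTZ3 CTBP2 peak (22.1%), and 6 and 28 a 4xPLASS peak. Among sites of other genes these shares were 63.2%, 31.1%, 13.6% and 52.4%.

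A further list of 48 genes of the same 2 lineages, 27 erythroid and 21 megakaryocyte, none of them among the 34, was counted in the same way. 36 of the 48 had a CTBP2 site (75%, against 66.1% of genes outside the 34). An EVI1 site was present at 39 (81.25%, against 68.8%). The shares of other genes include the 48. Of their 108 CTBP2 sites, 43 had no dox peak (39.8%, against 41.2% of sites of other genes). In both dox libraries 45 had one, against 38.3% of sites of other genes. By lineage, 22 of 49 erythroid sites (44.9%) and 21 of 59 megakaryocyte sites (35.6%) had none. Their promoter share was 32.4% (35 of 108), with 44.9% in the erythroid and 22.0% among the megakaryocyte sites. It was 17.6% for the 34 genes and 34.9% for other genes. Of their 121 EVI1 sites, 5 had no dox peak (4.13%, against 8.83% of EVI1 sites of other genes).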

How the data were processed

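ChIP-seq peak lists of EVI1 and CTBP2 from 13 libraries of MUTZ3 and MOLM1 cells were used, of 31 samples in the series. The authors aligned reads to hg19 with Bowtie 1.1.1 and called peaks per library against an input with MACS2 2.1.2 at default settings. The submitters' processing notes also name bcl2fastq 1.8.4 and deepTools 3.5.1. In the inducible cells EVI1 and CTBP2 shared 1 input per treatment. Each deposited list gives a fold enrichment over the local background (a ratio) and −log10 p and q values, with a display score that the authors' caller derives and that was not used. EVI1 libraries were crosslinked with DSG before formaldehyde. The lists give no number of reads, and depth is therefore unknown.

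Peaks were ranked by fold enrichment and assigned by summit to the nearest TSS of a protein-coding transcript (GENCODE 44, lifted to hg19) within 100 kb. Sites were intervals called in both untreated libraries and were assigned to genes by their centre. Overlap meant at least 1 bp. A promoter site had its centre within 1 kb of a TSS. Shares carry 95% Wilson intervals, which cover counting error alone. Peak numbers were compared by exact two-sided permutation of libraries. Sequences came from the hg19 reference, and copies were sought for the central 50 bases. Python 3.11.15, pandas 2.3.3, NumPy 2.4.6 and SciPy 1.17.1 were used, overlaps were checked with bedtools 2.31.1, and the steps were tested on simulated data.

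The genes and gene lists were chosen with earlier results of these data known. All 34 genes were accounted for. Sequences were printed for the best-ranked CTBP2 site of the 4 best-ranked erythroid and 4 best-ranked megakaryocyte genes, and for the best-ranked site without a dox peak, except that of GP9, which lies in a UTR. Alternatives were a −log10 q or fold enrichment of at least 5, 50 kb, gene 5′ ends, 2 kb promoters, 50% overlap, lists of equal length, sites of either library, a replicate block and leaving out each replicate. Nothing states whether replicate numbers pair the libraries, and the main results did not pair them. Deviations of same-numbered libraries correlated at 0.213 for CTBP2 and -0.238 for EVI1.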

Additional observations from a re-analysis of the deposited data

How the results depend on the processing

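Of 69 values under alternatives, 54 stayed near the reported one and 15 did not. The share of CTBP2 sites overlapping a dox peak gave 7 of these 15 and stayed near in 5 alternatives. That of EVI1 sites gave 5 and stayed near in 8. The EVI1 log2 ratio, the number of genes with a MOLM1 peak and the promoter share gave 1 each. Near meant the same sign for a log2 ratio, within 1.5 times for a number of genes, within 1 SD of the dox libraries for a share overlapping dox peaks and within its Wilson interval for a promoter share. No log2 ratio took the opposite sign, but that of EVI1 was 0 without untreated replicate 2. The sign rule says nothing of size. In lists of equal length the CTBP2 ratio was -0.20, against -1.66 as reported, and still counted as near. That of EVI1 was -0.008, against -0.29, and counted as near too. Lists of equal length hold the same number of peaks by design, so neither value can show a loss of peaks with dox. The share of CTBP2 sites overlapping a dox peak (44.9%) was 33.6% with a −log10 q of at least 5, 29.5% with a fold enrichment of at least 5, 61.1% in lists of equal length and 22.3% over sites of either untreated library. It ranged from 24.6% to 47.1% when a replicate was left out, and the lowest value was without untreated replicate 2. For EVI1 (88.4%) the share was 55.1% over sites of either library and ranged from 57.3% to 94.5%, with the lowest value without untreated replicate 1. The promoter share was 29.4% with a 2 kb window and ranged from 15.1% to 17.5% without a replicate. Listed genes with a MOLM1 CTBP2 peak numbered 11 among the strongest 16000 peaks, a share below that of other genes (34.8%), whereas over the whole list it was above (76.5% and 71.2%). The share of EVI1 sites overlapping a dox peak was above that of other genes as reported (88.4% and 84.9%) and below it with a −log10 q of at least 5 (84.9% and 85.5%). The log2 ratio of CTBP2 peak numbers ranged from -1.83 to -1.46 and that of EVI1 from -0.54 to 0 when a replicate was left out.

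With the replicate block the CTBP2 share was 31.1% and the EVI1 share 69.0%, and the log2 ratios were -1.65 (exact sign-flip p = 0.5) and -0.27 (exact p = 1). With EVI1 numbers crossed, chosen after seeing the data, the values were 68.8% and -0.27 (exact sign-flip p = 0.5). The block looks up single libraries in place of sites called in both. The permutation test of 2 against 2 libraries cannot go below p = 0.3333, and depth is unknown, so these data set no limit on small differences.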
